A study of Homo sapiens with 6 samples.

Results

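The clustered protocadherin genes were examined in BT-549 cells, an established triple-negative breast cancer (TNBC) line with mesenchymal features. They were taken from the raw-count table by symbol, as every row named PCDHA, PCDHAC, PCDHB, PCDHGA, PCDHGB or PCDHGC followed by a number. This gave 54 genes of the 37887 rows, with 16 in the alpha cluster, 16 in the beta cluster and 22 in the gamma cluster. RNA-seq was performed on 6 libraries in 2 groups of 3, named control_shRNA and shPBRM1 in the sample titles. According to the treatment labels and the design text, both groups carried the same doxycycline-inducible PBRM1 shRNA vector. The control_shRNA cells received 0.1% DMSO as the vehicle and the shPBRM1 cells received 500 ng/ml doxycycline (DOX), so that an effect of DOX itself and an effect of PBRM1 silencing cannot be told apart. By these labels, the cells were a puromycin-selected population of 1 line carrying 1 inducible hairpin. The titles name a control shRNA instead, and the paper's chromatin assays compared BT-549/CshRNA with BT-549/PBRM1shRNA cells. If the groups were 2 separately transduced lines, a difference between the lines could not be told apart from PBRM1 silencing either. The cells were cultured in triplicate. Nothing further states that the libraries came from separate cultures, and p-values measure the spread between these libraries, which may be technical.

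Clustered protocadherins are cell-surface adhesion proteins of the cadherin superfamily, best known in neurons, where different cells express different combinations of isoforms and use them for self-recognition. In the alpha and gamma clusters, each isoform has its own large first exon with its own promoter, which is spliced to constant exons that encode a common cytoplasmic tail, whereas the beta genes are single-exon genes without a constant region. The C-type isoforms (PCDHAC1, PCDHAC2, PCDHGC3, PCDHGC4 and PCDHGC5) lie at the end of the alpha and gamma arrays and are, in neurons, expressed more uniformly than the others. Promoter choice in the alternate isoforms is tied to a conserved promoter element (the CGCT box), to binding of CTCF and cohesin, and to DNA methylation. PBRM1 is a bromodomain protein of the PBAF form of the SWI/SNF chromatin remodeling complexes.

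PBRM1 itself was 158 CPM (counts scaled to library size with TMM factors) in control_shRNA and 41.9 CPM in shPBRM1, a log2 fold change of −1.91 (SE 0.027, n = 3 and 3, adjusted p = 9.98e-23 by edgeR's quasi-likelihood test). Total counts were between 36429395 and 65096297 per library, so that 3 counts, used here as the floor of detection, corresponded to 0.0471 to 0.0804 CPM. The 5 mesenchymal markers were all abundant, at 59.7 to 621 CPM in control_shRNA, with VIM, CDH2 and TWIST1 higher in shPBRM1 and FN1 (554 to 221 CPM) and ZEB1 (197 to 135 CPM) lower. ESR1 and EPCAM had at most 8 counts in any library. PGR and the epithelial marker KRT14 had at most 12 counts and were not tested. Epithelial markers were not all absent or unchanged. CDH1 was expressed and was lower in shPBRM1 (log2 fold change −1.73, to 1.51 CPM). KRT5 had at most 24 counts and did not pass the test. ERBB2 was at 51.3 CPM and did not pass the test. Among genes that mark other cells, the leukocyte marker PTPRC was at 0.797 CPM in control_shRNA and 0.132 CPM in shPBRM1. It was called lower (log2 fold change −2.55, adjusted p = 6.35e-06 by edgeR), on at most 44 counts in a library. CD3E was at 0 counts in every library. The endothelial marker PECAM1 had 0, 14 and 18 counts in control_shRNA and 4, 1 and 4 in shPBRM1, and was not tested. The summed level of the neuronal markers MAP2, RBFOX3 and SYP was 68.4 to 74.1 CPM in control_shRNA and 61.5 to 62.8 CPM in shPBRM1. MAP2 made up most of this sum, at 64.6 CPM in control_shRNA and 56.1 CPM in shPBRM1. It was called lower (log2 fold change −0.20, adjusted p = 1.23e-04 by edgeR), whereas SYP did not pass. RBFOX3, which marks mature neurons, was at 5 counts or fewer. The part of these genes in the results on protocadherins was not tested.

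All 54 genes lie on the plus strand of chromosome 5 (GRCh38, GENCODE v29), with alpha at chr5:140786136-141012347, beta at chr5:141051135-141249365 and gamma at chr5:141330571-141512981. In the annotation, the 15 protein-coding alpha genes share 2866 exon bases in 3 stretches and the 22 gamma genes share 2181 bases in 3 stretches, which are their constant exons, whereas the beta genes share none. The first constant exon is shown because it is the part that the isoforms of one cluster have in common, so that a read lying within it cannot be given to a single gene. Both have 59 bases and are identical at 39 positions (66.1%) without gaps, while the second constant exons, of 89 bases each, are identical at 29 positions (32.6%). The sequences are printed on the plus strand from GENCODE v29 transcripts, with the whole exon in lower case.
Alpha first constant exon, chr5:140978949-140979007: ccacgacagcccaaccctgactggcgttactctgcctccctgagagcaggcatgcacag
Gamma first constant exon, chr5:141494807-141494865: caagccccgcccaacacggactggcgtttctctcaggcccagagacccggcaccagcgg

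How reads in shared exons were counted is not given in the sources used here. In the first control_shRNA library, PCDHGA1 and PCDHGA5 were at 0 counts where PCDHGC3 had 2569, so that reads from the gamma constant exons were not added to every gamma gene. Further overlaps concern single members. PCDHGB4 and PCDHGA8 share 4447 exon bases with other members, PCDHA10 shares 5222, PCDHA2 and PCDHA3 share 3428 and PCDHA11 shares 2924, constant exons included. PCDHA14 (a pseudogene) lies entirely within exons of other members, and PCDHB8, PCDHB16, PCDHB9, PCDHB14 and PCDHB15 overlap other annotated loci. Counts of these members are uncertain to that extent.

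Promoter sequences were examined because each isoform is transcribed from its own promoter. RefSeq promoters (GRCh38.p14, a window around each annotated start that lies mostly upstream) were matched by symbol for 47 of the 54 genes. The 4 letters CGCT, searched on both strands, were found in 12 of 13 alpha, 14 of 14 beta and 20 of 20 gamma promoters, and in 71.9% of the promoters of all 27305 genes, so that these letters alone separate little. Longer forms were read from the members' own promoters and then searched, and they overlap one another at CGCT. The alpha form GATGTCGCT was found in 9 of 13 alpha promoters, in no beta or gamma promoter, and in 0.128% of all promoters. The beta form GGTGGCGCT was found in 13 of 14 beta promoters and in no alpha or gamma promoter, against 0.619% of all, the exception being PCDHB1. The gamma form, CGCTGT followed after any 4 bases by CA, was found in 14 of 20 gamma and 6 of 13 alpha promoters, in no beta promoter and in 0.952% of all. The windows below show matches in members at opposite ends of the expression range, with capitals marking the matched letters, printed 5′ to 3′ on the plus strand. A match of letters alone does not show that a promoter carries the conserved CGCT box. PCDHAC2 is shown for its match to the gamma form, as it had none to the alpha form.
PCDHA7, no library above 3 counts, chr5:140834169-140834208: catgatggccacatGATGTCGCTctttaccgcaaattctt
PCDHA10, low counts in every library, chr5:140855838-140855877: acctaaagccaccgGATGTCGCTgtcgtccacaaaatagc
PCDHAC2, lower in shPBRM1, chr5:140966367-140966406: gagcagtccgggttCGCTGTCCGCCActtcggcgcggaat
PCDHB2, higher in shPBRM1, chr5:141094541-141094580: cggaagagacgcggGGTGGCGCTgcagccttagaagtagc
PCDHB9, did not pass the test, chr5:141187071-141187110: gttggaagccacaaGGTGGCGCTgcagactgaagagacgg
PCDHB14, higher in shPBRM1, chr5:141223260-141223299: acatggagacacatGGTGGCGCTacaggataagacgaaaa
PCDHGB2, did not pass the test, chr5:141359923-141359962: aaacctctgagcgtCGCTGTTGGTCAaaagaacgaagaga
PCDHGA6, higher in shPBRM1, chr5:141373837-141373876: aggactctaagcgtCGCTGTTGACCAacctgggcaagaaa
PCDHGA7, higher in shPBRM1, chr5:141382651-141382690: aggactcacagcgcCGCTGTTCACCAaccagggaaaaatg
PCDHGA9, higher in shPBRM1, chr5:141402716-141402755: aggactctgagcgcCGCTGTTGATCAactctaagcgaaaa
PCDHGC3, the highest member per kb, chr5:141475882-141475921: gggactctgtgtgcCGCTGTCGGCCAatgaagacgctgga
PCDHGC4, did not pass the test, chr5:141484954-141484993: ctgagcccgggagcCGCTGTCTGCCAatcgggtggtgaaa

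The clusters differed in how many of their genes were detected. In the alpha cluster, 10 of 16 genes had 3 counts or fewer in all 6 libraries, namely PCDHA1 to PCDHA9 and PCDHA14, and in the beta cluster this was so of PCDHB1, 1 of 16. No gamma gene was at or under this limit. Of these 11 silent genes, PCDHA1, PCDHA4, PCDHA5, PCDHA6, PCDHA14 and PCDHB1 were at 0 counts in every library, which allows at most 3 counts in each. PCDHA8, with 3 counts in 1 library and 0 in the other 5, lay just inside the limit, and PCDHA11, with between 0 and 4 counts, just outside it. A count of 0 at this depth does not show that a gene is not transcribed.

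Another 17 genes were above this limit but did not pass the filter on low counts and were not tested. They were PCDHA10, PCDHA11, PCDHA12 and PCDHA13 in alpha, PCDHB4, PCDHB5, PCDHB6, PCDHB7, PCDHB8, PCDHB12, PCDHB13, PCDHB15 and PCDHB16 in beta, and PCDHGA1, PCDHGA2, PCDHGA3 and PCDHGB1 in gamma. The highest count among them was 14, reached by PCDHB8 and PCDHB13. PCDHA13 had 4, 10 and 8 counts in control_shRNA and 11, 4 and 6 in shPBRM1. For PCDHA10, the counts were 3, 8 and 7 in control_shRNA and 8, 12 and 8 in shPBRM1. The groups overlapped for both genes.

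The remaining 26 members were tested, with 2 in alpha, 6 in beta and 18 in gamma, among 15450 genes tested in all. At a threshold of 0.05 on the adjusted p (edgeR, quasi-likelihood), 12 members were higher and 2 were lower in shPBRM1, and 12 did not pass. Over all genes tested, 31.5% were higher and 33.2% lower by the same test, or 64.7% in either direction. The higher members therefore made up 46.2% of those tested, next to a background of 31.5%. In the other direction, 2 of the 26 were lower, next to a background of 33.2%. In either direction, 12 of the 26 did not pass, where 64.7% of all genes passed. With a fold change over 2 required as well, 4 members were higher (PCDHGA5, PCDHGA6, PCDHGB4 and PCDHGB6) and 2 lower (PCDHAC1 and PCDHAC2), against 2.87% higher and 9.68% lower of all genes. The groups did not overlap in CPM for 13 members that were higher and 3 that were lower in shPBRM1, against 33.3% and 35% of all genes, or 68.3% in either direction. The median log2 fold change was 0.62 over the 26 tested members, with 20 above 0, and −0.0080 over all genes tested.

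By cluster, the calls differed in number and direction, and the difference between clusters was not tested. In alpha, both tested genes were lower and none was higher. Over all genes tested, 31.5% were higher and 33.2% lower. In beta, 2 of 6 tested genes (33.3%) were higher and 0 lower, with a median log2 fold change of 0.51. The beta share of higher genes was thus close to that of all genes. In gamma, 10 of 18 (55.6%) were higher and 0 lower, with a median of 0.82. As the members that passed the filter include those that passed through the group where they are high, these counts describe the tested genes and not the clusters as a whole.

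**Figure D1:**
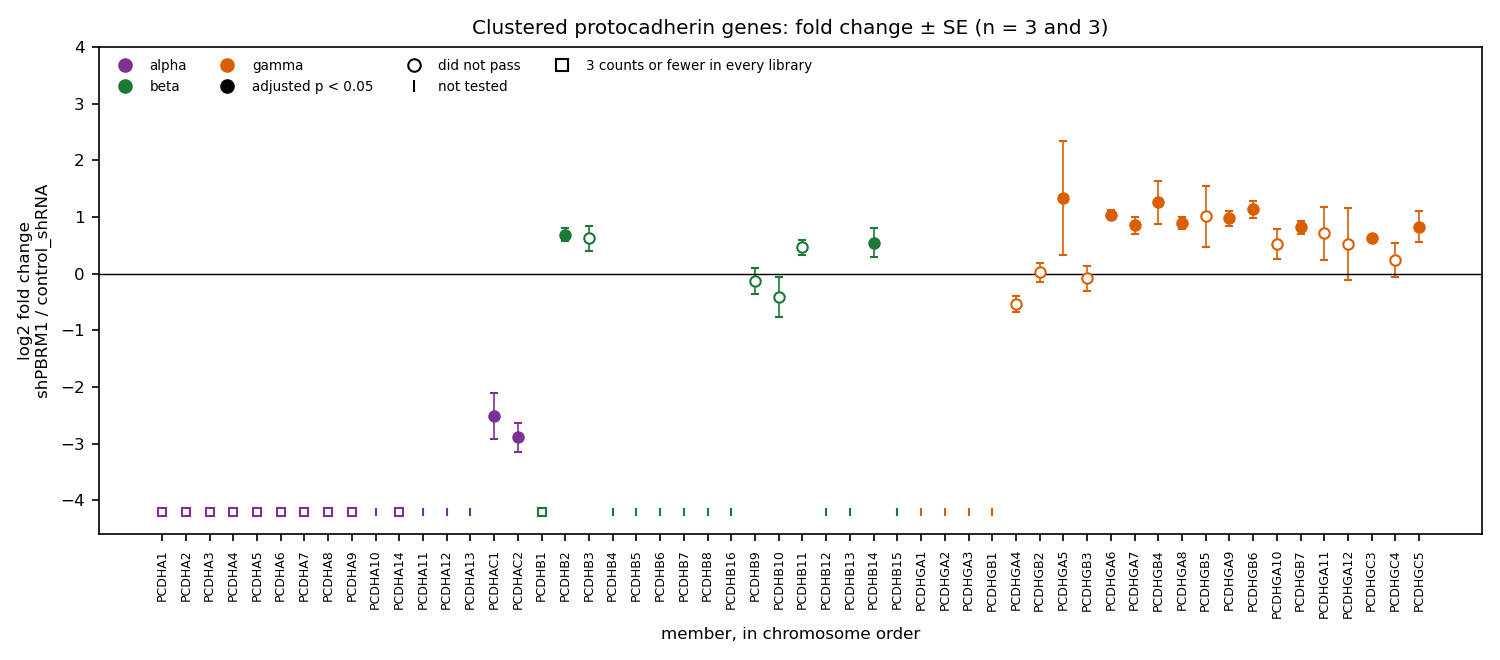
Log2 fold change (shPBRM1 over control_shRNA, y axis) of the tested members in chromosome order (x axis), with points for the edgeR estimate, bars for the SE from the spread between 3 and 3 libraries, filled points for an adjusted p under 0.05, and marks at the bottom for untested (tick) and silent (square) genes. The 2 tested alpha genes lie below 0 at −2.51 and −2.89, and the 14 gamma genes from PCDHGA6 to PCDHGC5 lie above 0.

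The summed level of each cluster was used to describe all members together, the untested ones included, with no test. Gamma summed to 107.7 ± 2.28 CPM in control_shRNA and 176.7 ± 4.16 CPM in shPBRM1 (SD, n = 3), a log2 ratio of 0.71. Beta summed to 9.02 ± 0.932 and 11.1 ± 0.321 CPM, a log2 ratio of 0.29, and alpha to 1.14 ± 0.0797 and 0.558 ± 0.0297 CPM, a log2 ratio of −1.03. For each cluster the groups of libraries did not overlap. The sums depended on single genes to a different extent. Without PCDHGC3, the gamma ratio was 0.86, from 39.3 to 71.4 CPM. Without PCDHB2, the beta ratio was 0.10 and the groups overlapped. Without PCDHAC2, the alpha ratio was −0.42. In bulk RNA, a lower level may be fewer cells that express a gene or less RNA per cell, and these cannot be told apart.

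**Figure D2:**
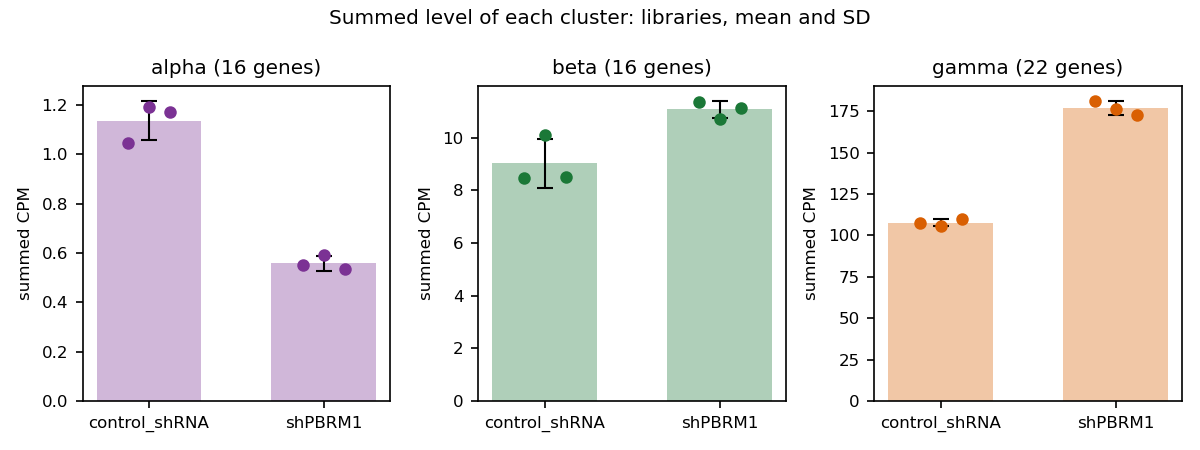
Summed CPM (y axis, from 0, with a scale of its own in each panel) of the alpha, beta and gamma clusters in control_shRNA and shPBRM1, with bars for the mean of 3 libraries, lines for the SD and points for each library. In shPBRM1, the alpha sum was 0.491 times that of control_shRNA, the beta sum 1.23 times and the gamma sum 1.64 times.

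Gamma genes held 91.4% of all counts on the 54 genes in control_shRNA and 93.8% in shPBRM1, with beta at 7.66% and 5.88% and alpha at 0.964% and 0.296%. The gamma share was between 90.3% and 91.9% in the control_shRNA libraries and between 93.7% and 94.0% in the shPBRM1 libraries, so that these ranges did not overlap. No test was made of these shares.

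Among the C-type isoforms of gamma, PCDHGC3 was the member with the most counts. It had 2569, 3232 and 3527 counts in control_shRNA and 6358, 4080 and 6704 in shPBRM1. Scaled to library size, this was 68.4 ± 1.76 and 105.3 ± 0.548 CPM, with every shPBRM1 library above every control_shRNA library. The log2 fold change was 0.62 (SE 0.022, adjusted p = 1.55e-13 by edgeR). PCDHGC3 made up 63.5% ± 0.432 of the gamma counts in control_shRNA and 59.6% ± 1.19 in shPBRM1 (SD, n = 3), a smaller share although its level was higher.

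PCDHGC5, the last gene of the array, had 33, 27 and 37 counts in control_shRNA and 78, 36 and 98 in shPBRM1. It rose by 0.83 on the log2 scale (SE 0.28, adjusted p = 0.00798 by edgeR), and the groups in CPM did not overlap. This call was lost without the second control_shRNA library and without the third shPBRM1 library (adjusted p up to 0.0735). PCDHGC4 lies between these genes and had 42, 48 and 30 counts in control_shRNA and 55, 38 and 80 in shPBRM1. Its groups overlapped in CPM, and the log2 difference of 0.24 (SE 0.30) did not pass (adjusted p = 0.434 by edgeR).

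The C-type isoforms of alpha, the only alpha genes tested, were lower in shPBRM1. Both passed the filter on low counts through control_shRNA, the group where they are high, so that the direction of these calls is tied to that filter. PCDHAC2 had 17, 23 and 24 counts in control_shRNA and 2, 2 and 6 in shPBRM1, or 0.468 ± 0.0111 and 0.0596 ± 0.0312 CPM. Its log2 fold change was −2.89 (SE 0.25, adjusted p = 3.43e-05 by edgeR). PCDHAC1 had 8, 10 and 12 counts in control_shRNA and 2, 0 and 4 in shPBRM1, with a log2 fold change of −2.51 (SE 0.40, adjusted p = 0.00327 by edgeR). All control_shRNA libraries were above all shPBRM1 libraries for both genes. In shPBRM1, 2 of 3 libraries were at or under the floor of 3 counts for each gene, so that the fitted fold changes depend on the small number added to low counts.

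From the summed counts alone, PCDHAC2 stood in shPBRM1 at 13.1% of its control_shRNA level (95% Clopper-Pearson interval 6.0% to 25.7%, from 64 and 10 counts). PCDHAC1 stood at 16.8% (5.70% to 40.9%, from 30 and 6 counts). Even numbers were in excess among low counts (73.9% of 134 member counts under 20, and 60.4% to 61.2% over all genes by library), as when both mates of a read pair are counted. With counts halved, the upper bounds were 32.7% for PCDHAC2 and 59.3% for PCDHAC1. These intervals cover counting error only. PCDHAC1 no longer passed the filter on low counts when counts were halved.

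In the rest of the alpha cluster, the groups overlapped. The 14 alpha genes other than PCDHAC1 and PCDHAC2 summed to 0.448 ± 0.0699 CPM in control_shRNA and 0.466 ± 0.0828 CPM in shPBRM1 (SD, n = 3). None of these 14 genes was tested. PCDHAC1 and PCDHAC2 together summed to 0.687 ± 0.0232 and 0.0916 ± 0.0570 CPM. Accordingly, PCDHAC2 was 41.3% of the alpha counts in control_shRNA and 10.8% in shPBRM1, where PCDHA10 held 33.3% ± 16.3 on 8 to 12 counts. PCDHA10 has 10002 unshared exon bases and PCDHAC2 has 3452, so that these shares do not rank their levels.

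**Figure D3:**
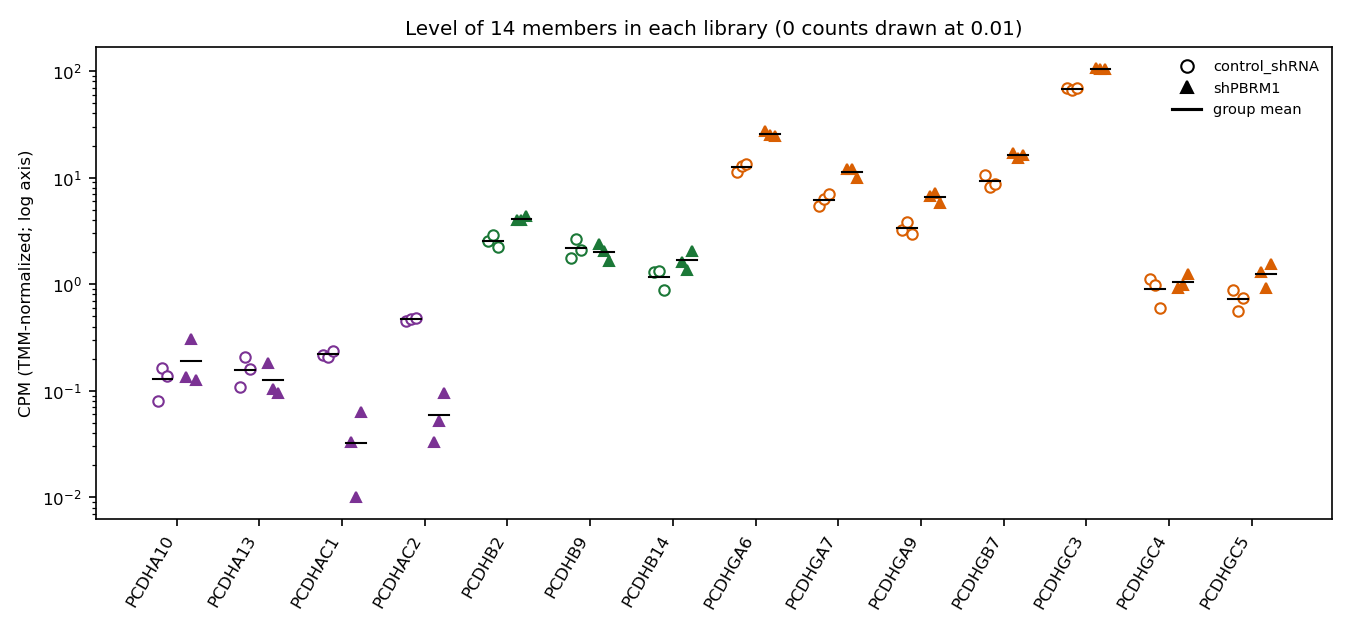
CPM on a log axis (y) of 14 members (x) in each of the 3 control_shRNA (open circles) and 3 shPBRM1 libraries (filled triangles), with black lines for group means and a value of 0 drawn at 0.01. PCDHAC1 and PCDHAC2 are lower in all 3 shPBRM1 libraries, PCDHA10, PCDHA13, PCDHB9 and PCDHGC4 overlap between groups, and PCDHGC3 is at 68.4 and 105.3 CPM on average.

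The alternate gamma isoforms fall into the A and B subfamilies, which carry distinct extracellular domains that set the specificity of adhesion. Of the A type, 5 of 9 tested genes were higher (PCDHGA5, PCDHGA6, PCDHGA7, PCDHGA8 and PCDHGA9), and of the B type, 3 of 6 (PCDHGB4, PCDHGB6 and PCDHGB7). None was lower in either subfamily, and the median log2 fold changes were 0.85 and 0.92. Over all genes tested, 31.5% were higher and 33.2% lower. The call of PCDHGA5 did not hold under every alternative, as given below.

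PCDHGA6 had 426, 623 and 671 counts in control_shRNA and 1643, 985 and 1569 in shPBRM1. It rose from 12.5 ± 0.982 to 25.8 ± 1.43 CPM, 2.05-fold (log2 fold change 1.04, SE 0.081, adjusted p = 9.26e-12 by edgeR). Its share of the gamma counts was 11.6% ± 0.882 in control_shRNA and 14.6% ± 0.469 in shPBRM1. PCDHGA6 thus stood higher in shPBRM1 both in level and, unlike PCDHGC3, as a share of its cluster.

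PCDHGB7 had 398, 401 and 444 counts in control_shRNA and 1013, 599 and 1040 in shPBRM1, and rose 1.77-fold (log2 fold change 0.82, SE 0.12, adjusted p = 1.70e-08 by edgeR). PCDHGA7 had 200, 307 and 352 counts in control_shRNA and 720, 473 and 627 in shPBRM1, and rose 1.8-fold (log2 fold change 0.85, SE 0.15, adjusted p = 1.67e-07 by edgeR). For PCDHGA9, the counts were 120, 186 and 150 in control_shRNA and 407, 280 and 372 in shPBRM1, a rise of 1.97-fold (log2 fold change 0.98, SE 0.14, adjusted p = 2.54e-07 by edgeR). In all 3 genes the groups did not overlap in CPM, although the second shPBRM1 library, the shallowest of its group, had the fewest counts of that group.

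The other higher gamma genes had lower counts. PCDHGB4 rose 2.39-fold, PCDHGB6 2.20-fold and PCDHGA8 1.86-fold, without overlap between groups. The call of PCDHGB4 was lost without the first shPBRM1 library (adjusted p = 0.0522 by edgeR). PCDHGA5 was between 0 and 12 counts in control_shRNA and between 12 and 30 in shPBRM1. Its estimate of 1.34 had an SE of 1.01, the groups overlapped, and its adjusted p of 0.0467 (edgeR) was lost when any of 4 libraries was left out and in DESeq2, with adjusted p up to 0.166.

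The gamma genes that did not pass, 8 in all, were PCDHGA4, PCDHGB2, PCDHGB3, PCDHGB5, PCDHGA10, PCDHGA11, PCDHGA12 and PCDHGC4. Their log2 differences ran from −0.53 for PCDHGA4 to 1.01 for PCDHGB5. PCDHGA4 was the only one in which the groups did not overlap, with 0.975 ± 0.0295 CPM in control_shRNA and 0.675 ± 0.118 CPM in shPBRM1 (adjusted p = 0.0795 by edgeR). PCDHGB2 was at 1.44 and 1.47 CPM, and PCDHGB3 at 0.221 and 0.208 CPM.

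Position along the gamma array was compared with the calls, with the boundary placed at PCDHGA6 after the values were seen, and without a test. From PCDHGA6 to PCDHGC5, all 14 genes were tested, all 14 had a positive log2 fold change and 9 were called higher, with a median of 0.84. Of the 8 genes before PCDHGA6, 4 were tested, 1 (PCDHGA5) was called higher, and the median was −0.03. The shares called higher were 64.3% of the 14 genes and 25% of the 4, next to 31.5% of all genes tested. The share before PCDHGA6 was thus close to that of all genes, on few genes. The 8 genes before PCDHGA6 summed to 3.08 ± 0.237 CPM in control_shRNA and 3.21 ± 0.689 CPM in shPBRM1, and the groups overlapped. The 11 alternate isoforms from PCDHGA6 to PCDHGA12 summed to 34.6 ± 0.787 and 65.9 ± 3.42 CPM (SD, n = 3). Letters matching the gamma form were found on both sides of this boundary. They were in 6 of 8 promoters before PCDHGA6 and in 8 of the 12 matched from PCDHGA6 on, PCDHGC4 included. Of the tested gamma genes with a matched promoter, 7 of 11 with the form and 2 of 5 without it were called higher. These counts too can be read beside the 31.5% higher of all genes tested.

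In the beta cluster, whose genes encode adhesion proteins without the shared tail, PCDHB2 had 94, 142 and 112 counts in control_shRNA and 240, 155 and 277 in shPBRM1. It rose 1.61-fold, from 2.55 ± 0.351 to 4.11 ± 0.205 CPM (log2 fold change 0.69, SE 0.12, adjusted p = 1.13e-04 by edgeR). PCDHB14 had 49, 64 and 44 counts in control_shRNA and 97, 53 and 130 in shPBRM1, with a log2 fold change of 0.55 (SE 0.25, adjusted p = 0.0344 by edgeR). The groups did not overlap in CPM for either gene. The call of PCDHB14 was lost with library size alone as the scaling (adjusted p = 0.050 by edgeR), without the third library of either group and in DESeq2 (adjusted p = 0.109).

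PCDHB9 had 65, 130 and 106 counts in control_shRNA and 142, 79 and 104 in shPBRM1. Its log2 difference of −0.13 (SE 0.23) did not pass (adjusted p = 0.569 by edgeR), and the groups overlapped. PCDHB3 (0.63) and PCDHB11 (0.47) did not pass although their groups did not overlap, and PCDHB10 (−0.41) did not pass with overlapping groups. PCDHB2 therefore took a larger part of the beta counts in shPBRM1, at 37.1% ± 1.89 against 28.3% ± 1.91, while PCDHB9 was at 18.1% ± 3.18 against 23.9% ± 3.03 (SD, n = 3).

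Shares of counts as given above depend on gene length. Levels of different genes were therefore compared per kb of the exon bases that no other annotated gene on the plus strand shares. These bases are from the GENCODE v29 annotation, which may not be the one used for counting. In control_shRNA, PCDHGC3 was at 21.0 ± 0.542 CPM per kb, above PCDHGB7 at 3.32 ± 0.454, PCDHGA6 at 2.18 ± 0.171, PCDHGA7 at 1.91 ± 0.250 and PCDHGA9 at 1.30 ± 0.171 (SD, n = 3). The ranges of 1 SD overlapped for PCDHGA6 and PCDHGA7. In shPBRM1 the same 5 genes stood at 32.4, 5.81, 4.50, 3.47 and 2.57 CPM per kb, in the same order. The highest beta genes, PCDHB2 at 0.619 and PCDHB9 at 0.533 CPM per kb in control_shRNA, were in the range of PCDHGB2 at 0.557. In alpha, PCDHAC2 was the highest in control_shRNA, at 0.136 CPM per kb, and stood at 0.0173 in shPBRM1, where PCDHA13 (0.0509), PCDHA12 (0.0197) and PCDHA10 (0.0189) were above it on few counts.

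**Figure D4:**
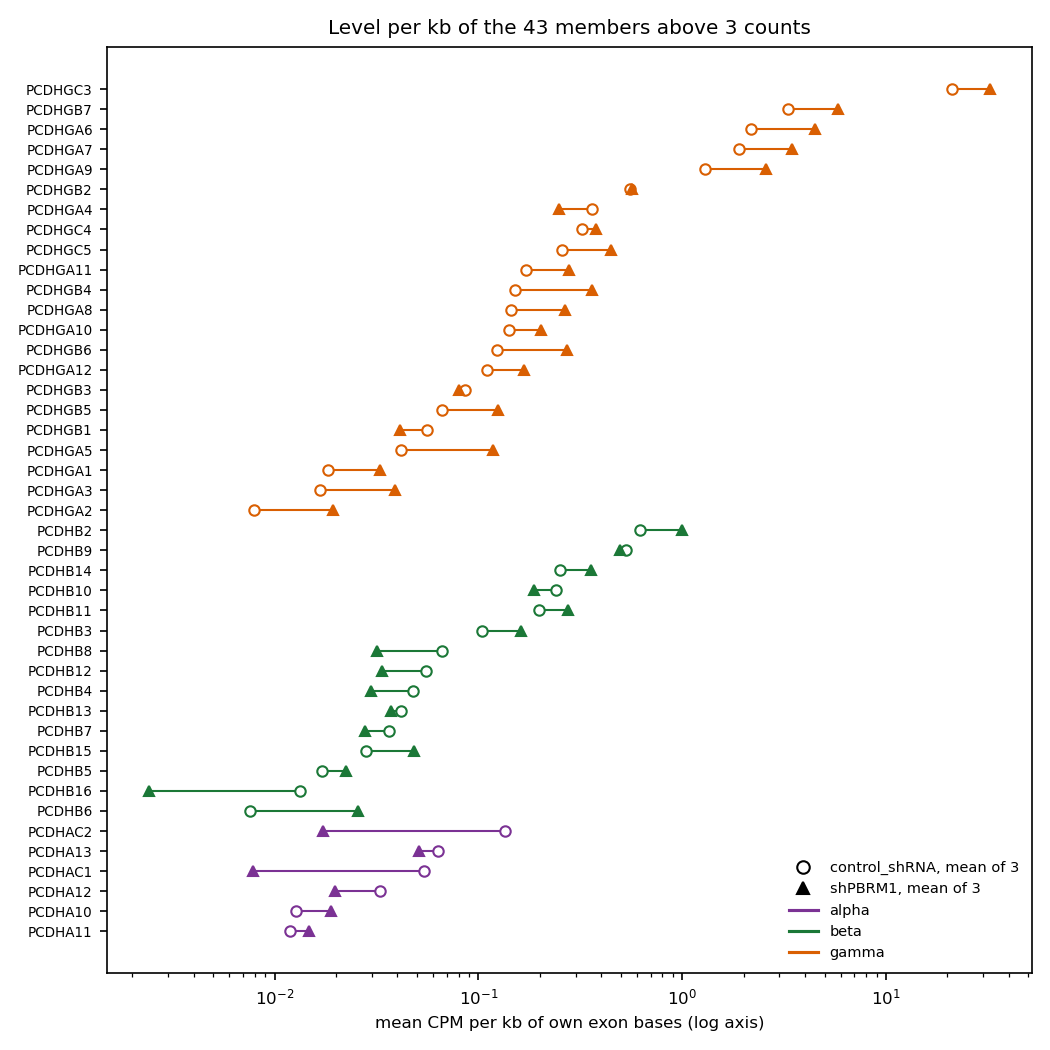
Mean CPM per kb of unshared exon bases (x, log axis) in control_shRNA (open circles) and shPBRM1 (filled triangles) for the 43 members above 3 counts in at least 1 library, ordered within each cluster. PCDHGC3 lies highest at 21.0 and 32.4, and PCDHAC1 and PCDHAC2 have the longest leftward lines among the alpha genes.

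Genes around the clusters were examined for comparison. Of the 21 genes flanking the clusters, 19 were tested, with 6 higher and 7 lower, a median log2 fold change of −0.06. TAF7, a transcription factor subunit encoded between beta and gamma, was lower by 0.13 on the log2 scale, from 115.4 to 105.3 CPM (adjusted p = 0.00266 by edgeR). SLC25A2, a mitochondrial carrier in the same interval, had at most 10 counts and was not tested. DIAPH1, which nucleates actin and lies beyond the gamma constant exons, was higher by 0.21 (adjusted p = 2.33e-05 by edgeR). The largest rise was in CD14, from 0.331 to 0.678 CPM, and the largest fall in ARAP3, from 0.799 to 0.112 CPM.

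Non-clustered protocadherins, which lie outside the arrays, had 8 of 12 genes tested, with 3 higher and 3 lower. PCDH1 and PCDH12 are among them and were also counted among the flanking genes above. PCDH9 had the largest rise (0.77) and PCDH1 the largest fall (−2.57, from 271 to 45.8 CPM). Of a list of 19 classical and related cadherins, 8 were tested, with 3 higher and 4 lower. CDH24 (0.55) and CDH2 (0.54) rose, while CDH1 had the largest fall (−1.73, to 1.51 CPM).

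Regulators of the clusters were counted in the same fit. Of 12 genes, made up of CTCF, cohesin, its loaders and release factors and the zinc-finger factor ZNF143, all tested, 5 were higher and 1 was lower. CTCF was at 73.1 and 70.7 CPM and did not pass (log2 difference −0.04, adjusted p = 0.339 by edgeR), whereas the cohesin subunit RAD21 rose by 0.39, PDS5B by 0.49, and NIPBL fell by 0.13. Of 15 genes linked to silencing of the clusters or of chromatin in general, 6 were higher and 3 were lower. The DNA methyltransferase DNMT3B rose by 1.14, from 3.96 to 8.77 CPM, ATF7IP fell by 0.41 and SMCHD1 by 0.31. SETDB1, a histone H3 methyltransferase, did not pass (−0.09, adjusted p = 0.119 by edgeR). ADAM10, a protease that cuts protocadherins at the cell surface, rose by 0.67 on the log2 scale, from 161 to 256 CPM. In all these lists, the shares that passed can be read beside 31.5% higher and 33.2% lower of all genes.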

How the data were processed

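RNA-seq was available for 6 BT-549 libraries in 2 groups of 3, taken from the sample titles. The authors deposited a table of raw counts with 1 row per gene symbol. The submitters' processing notes name CASAVA 1.8.2, STAR 2.7.9a, featureCounts, DESeq2 1.24.0 and GRCh38.p7, and the paper names DESeq2. The strand setting, the annotation and the handling of reads shared by genes are not given in the sources used here. The control_shRNA columns carry the cell line and a replicate number but no group name. They were mapped by number and by the absence of shPBRM1. Of the 37887 rows, 14 hold dates in place of symbols and were kept unnamed.

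Differences in counts were fitted in R 4.3.3 using edgeR 4.0.16 (TMM factors, filterByExpr, quasi-likelihood F-test, Benjamini-Hochberg adjustment over 15450 genes, adjusted p under 0.05) and, as an alternative, DESeq2 1.42.0. The SE is that of the spread of log2 CPM between libraries with 2 counts added. The code was tested on simulated data. Libraries of 1 group differed by more than sampling noise (chi-square per degree of freedom 4.92 to 24.9). Replicate numbers paired the libraries, with correlations of deviations from the group means of 0.73, 0.59 and 0.42 for same-numbered libraries over 5622 genes, although control_shRNA library 2 and shPBRM1 library 3 also correlated, at 0.46. Alternatives were other scalings and filters, a fold-change rule, a replicate block, and leaving out each library. Halving the counts was chosen after seeing the data, as 73.9% of 134 member counts under 20 were even, as were 60.4% to 61.2% of such counts over all genes by library.

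The members and lists were chosen with earlier results of these data known. Per-library values are given for the 3 members with the highest mean CPM in each cluster, the 5 C-type members, and up to 10 members with the largest change among those that passed with a mean of at least 50 counts. The genes of the lists were named by function, with the largest rise and fall of each, and some genes of these lists are not reported here. Names, positions and exons are from GENCODE v29 (GRCh38), and promoters from RefSeq (GRCh38.p14). Intervals are at the 95% level.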

Additional observations from a re-analysis of the deposited data

How the results depend on the processing

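Depth limits the alpha genes most, since the highest alpha count in a library was 24, and the 2 calls there rest on few counts. Summed levels and shares had no test. No member or cluster reversed its direction past the threshold under any alternative. With a fold change over 2 required, 4 members were higher. With a mean of at least 50 counts required, 0 members were lower (0 in alpha), because the alpha genes were removed by that filter, and 6 gamma genes were higher. With counts halved, 1 member was lower (1 in alpha), as PCDHAC1 was not tested there. In beta, 1 gene was higher with library size only and in DESeq2, and 1 to 2 when 1 library was left out, because PCDHB14 lost its call. Without the gene with the most counts, the summed log2 ratio was −0.42 in alpha, 0.10 in beta and 0.86 in gamma. With library size only, it was 0.67 in gamma, and the median of all genes moved to −0.06. At 0 counts in every library there were 6 silent members, and at 10 counts or fewer 19. With the replicate block, 12 members were higher and 2 were lower, and the block changed no call of a member. Of the values given for single genes under the alternatives, 299 kept their side of the threshold, 12 lost it and 7 gained it.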

Other observations

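Pseudogenes of the arrays, whose symbols do not match the rule for members, were read from the same table. PCDHGB8P had 12, 6 and 15 counts in control_shRNA and 24, 17 and 35 in shPBRM1, with a log2 difference of 0.92 (SE 0.39) that did not pass (adjusted p = 0.0550 by edgeR). PCDHGB9P had 12, 5 and 13 counts in control_shRNA and 20, 17 and 27 in shPBRM1, with a log2 difference of 0.82 (SE 0.42) that did not pass (adjusted p = 0.105 by edgeR). PCDHB17P, PCDHB18P and PCDHB19P had at most 4 counts in any library and were not tested.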
